A study of Mus musculus with 16 samples.

Results

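The genes described here are 7 mouse genes of MHC class II antigen presentation, chosen by name: H2-Aa, H2-Ab1, H2-Eb1, Cd74, H2-DMa, H2-DMb1 and Ciita. They are 7 of the 50600 gene identifiers in the count table. No cutoff on a measured value was used to choose them, but earlier results of these data were known when they were chosen. All 7 reached the minimum of 10 counts in total over the libraries, as did 22155 identifiers in all, and these were the genes tested.

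Epidermal cells were taken from the footpad of 16 female C57/B6J mice, 4 in each of 4 groups, with 1 library for each mouse. All mice ate a purified diet for 3 wk from 5 wk of age. It was either poor in ligands of the aryl hydrocarbon receptor AhR (AhR-poor diet, SYNTH in the labels) or contained 200 ppm of indole-3-carbinol, a source of such ligands (I3C diet). The footpad was injected with 50 μl of PBS without (vehicle) or with papain (50 μg), a protease used as an allergen, and the cells were collected 6 hr later. By the methods, mice on the same diet shared a cage, so diet and cage cannot be told apart, and the sequencing unit of each library is not in the labels.

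MHC class II molecules display peptides from the endocytic pathway to CD4 T cells. An alpha and a beta chain pair in the endoplasmic reticulum and are guided to the endosome by the invariant chain Cd74, whose remnant is then exchanged for peptide with the help of H2-DM. The genes are switched on together by the transactivator Ciita, which binds no DNA itself but docks on factors that sit on the X and Y boxes of their promoters. In the epidermis, Langerhans cells are the resident cells that express class II in the steady state, and most other epidermal cells are keratinocytes.

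Promoter sequences were matched in the RefSeq table (build GRCm38.p6) for 4 of the 7 genes, H2-Aa, H2-Eb1, H2-DMa and H2-DMb1. Both strands of each promoter of 300 bases were searched for an X box core, AACNGATG, and a Y box core, GATTGG, motifs that do not overlap in these promoters. They are shown because these are the motifs through which the class II genes are known to be read by shared factors. Whether they bear on the levels measured here was not tested. Of all 32851 promoters of this length, 2.32% held the X box core, 16.1% the Y box core and 0.335% both. H2-Eb1 and H2-DMb1 held both, with 21 and 22 bases between them, and H2-Aa held the Y box core alone. Only exact matches to these letters were searched, so this does not show that H2-Aa lacks an X box. H2-DMa has 2 promoters in the table, of which 1 held a Y box core, 199 bases before the start, and neither held an X box core. Both, at chr17:34122582-34122881 and chr17:34125268-34125567, lie inside the annotated gene (chr17:34119541-34139101). Sequence before any other start of H2-DMa was not searched, so this does not show that the gene lacks an X box. The 120 bases before the RefSeq start are given 5′ to 3′ on the strand of the gene, with the matches in capitals. They lie at chr17:34287824-34287943 for H2-Aa (minus strand), chr17:34305747-34305866 for H2-Eb1 (plus strand) and chr17:34153071-34153190 for H2-DMb1 (plus strand).
H2-Aa: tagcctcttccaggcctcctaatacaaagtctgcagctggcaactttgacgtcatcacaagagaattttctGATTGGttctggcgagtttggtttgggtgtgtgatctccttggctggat
H2-Eb1: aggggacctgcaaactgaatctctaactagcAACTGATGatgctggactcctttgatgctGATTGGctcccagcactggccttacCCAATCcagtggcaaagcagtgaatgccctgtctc
H2-DMb1: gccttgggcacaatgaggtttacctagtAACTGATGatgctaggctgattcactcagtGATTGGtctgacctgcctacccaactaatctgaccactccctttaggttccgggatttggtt

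In H2-Eb1 the X box core starts 89 bases and the Y box core 60 bases before the start, and a further Y box core lies on the opposite strand. In H2-DMb1 they start 92 and 62 bases before it. The Y box core of H2-Aa starts 49 bases before its start. A match is a description of these letters and was not tested for binding.

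Levels are in CPM, the counts of a gene relative to its library's total after correction with TMM factors. Library totals ranged from 22500821 to 51844375 counts, so that 3 counts equalled 0.0569 to 0.130 CPM, a floor that covers counting error only. The weakest member, Ciita, had 35 to 161 counts in a library and the strongest, Cd74, 2590 to 17477. Replicates of a group differed by more than counting noise in every pair. The library T106 of the papain group on the I3C diet had the highest level of its group for all 7 genes. Results of the members whose call or overlap changed without it are given both ways. Per kilobase of exon, Cd74 had the highest level in each group, with a mean of 180 CPM per kb in the vehicle group on the AhR-poor diet. H2-Eb1 followed with 63.6, H2-Ab1 with 56.7, H2-Aa with 34.2, H2-DMb1 with 5.29, H2-DMa with 4.17 and Ciita with 0.304 CPM per kb. The mean levels had the same order in the other groups. The exon lengths take in all annotated transcripts of each gene, with 3798 bases for H2-Aa, 3448 for H2-DMa and 9535 for Ciita. This can lower the level of a gene on this scale. In CPM, the mean of H2-DMa in the vehicle group on the AhR-poor diet, 14.4, was above that of H2-DMb1, 8.89.

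The main difference was between the diets. On the AhR-poor diet all 7 genes had a higher mean level than on the I3C diet, with either injection, by 1.40-fold to 2.75-fold in the fit. Between papain and vehicle, the class II chains and Cd74 did not pass the test on either diet. A gene was called at an adjusted p below 0.01 with a log2 fold change above 1 or below -1. Of all genes tested, 1.59% were called higher on the AhR-poor diet with vehicle and 7.15% with papain. The groups did not overlap, with the AhR-poor diet higher, for 6.45% of genes with vehicle and 12.5% with papain.

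H2-Aa encodes the alpha chain of the I-A molecule. In the vehicle groups its level was 31.4, 56.8, 42.4 and 78.6 CPM under the I3C diet and 129, 125, 122 and 143 CPM under the AhR-poor diet. After papain it was 103.8, 55.2, 56.4 and 31.9 CPM under the I3C diet and 157, 141, 141 and 117 CPM under the AhR-poor diet. The diets did not overlap with either injection. On the AhR-poor diet the level was 2.48 times as high with vehicle (log2 fold change 1.31 ± 0.31 SE, adjusted p = 0.036) and 2.25 times as high with papain (1.17 ± 0.31, adjusted p = 0.017), by the quasi-likelihood test of edgeR with Benjamini-Hochberg adjustment over all genes tested. These passed 0.05 but not the limit of 0.01 at which a gene was called.

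H2-Ab1, the beta chain that pairs with H2-Aa, followed it closely. It was at 53.0 ± 21.7 CPM with vehicle on the I3C diet (mean ± SD, n = 4) and 146 ± 3.49 on the AhR-poor diet, and at 68.7 ± 36.5 and 162 ± 16.9 CPM after papain. The lowest vehicle library on the AhR-poor diet, at 141 CPM, lay above the highest on the I3C diet, at 80.6 CPM. The log2 fold change between diets was 1.46 ± 0.33 with vehicle (adjusted p = 0.026 in edgeR) and 1.23 ± 0.33 with papain (adjusted p = 0.016). Leaving out T106 gave 1.44 and 1.66 (adjusted p of 0.0045 and 0.00084 in edgeR), both called.

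H2-Eb1 is the beta chain of the I-E molecule, whose alpha chain gene H2-Ea is inactive in the C57BL/6 background. The pseudogene row of that chain, H2-Ea-ps, had no count in any of the 16 libraries. H2-Eb1 was read at levels close to those of H2-Aa, 46.4 ± 18.4 CPM under the I3C diet and 124 ± 10.5 CPM under the AhR-poor diet with vehicle, and 59.3 ± 30.8 and 143 ± 18.1 CPM with papain. Its log2 fold changes between diets were 1.41 ± 0.33 (adjusted p = 0.029 in edgeR) and 1.26 ± 0.32 (adjusted p = 0.013). They were 1.40 and 1.68 without T106 (adjusted p of 0.0060 and 0.00086 in edgeR), and then both called.

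Cd74, the invariant chain, also kept the diets apart in every library. With vehicle it was at 74.4, 133, 96.2 and 194 CPM under the I3C diet and at 291, 288, 304 and 324 CPM under the AhR-poor diet. With papain it was at 237, 136, 142 and 82.7 CPM under the I3C diet and at 385, 332, 358 and 308 CPM under the AhR-poor diet. The differences were 1.28 ± 0.30 on the log2 scale with vehicle (adjusted p = 0.031 in edgeR) and 1.21 ± 0.30 with papain (adjusted p = 0.011). With T106 left out, that with papain was 1.53 (adjusted p = 0.0017 in edgeR) and was called, and that with vehicle was not called.

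**Figure D1:**
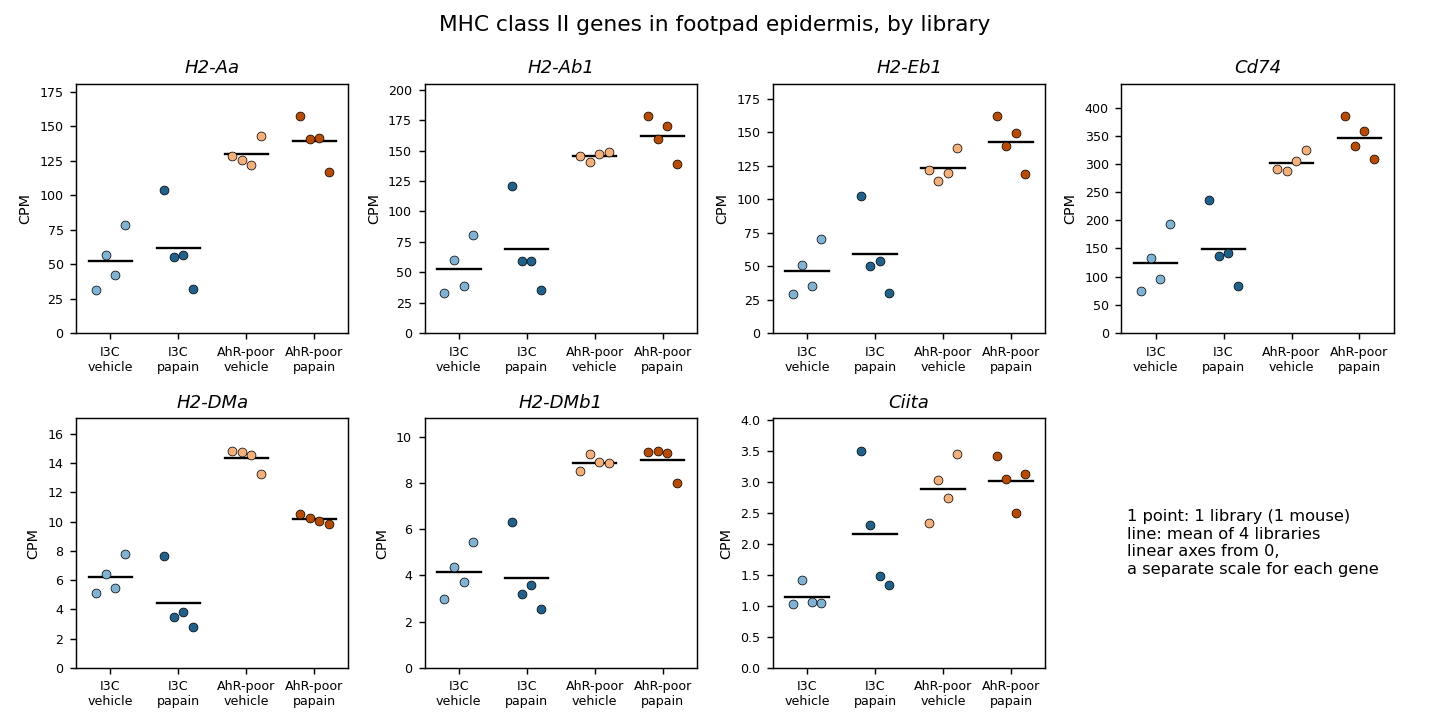
Level of each of the 7 class II genes in CPM (linear axes from 0, a separate scale for each gene) in the 16 libraries by diet and injection; points are libraries and lines are group means. With vehicle, all 4 AhR-poor libraries lie above all 4 I3C libraries for each gene; with papain this holds for each gene but Ciita, where only the I3C library T106 reaches into the AhR-poor range, and Cd74 reaches 385 CPM.

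H2-DMa and H2-DMb1 encode the chains of H2-DM, the endosomal catalyst of peptide exchange, and both were called between diets with either injection. H2-DMa was at 5.11, 6.40, 5.44 and 7.80 CPM under the I3C diet and 14.8, 14.7, 14.6 and 13.3 CPM under the AhR-poor diet with vehicle. After papain it was at 7.62, 3.46, 3.80 and 2.76 CPM under the I3C diet and 10.5, 10.3, 10.04 and 9.87 CPM under the AhR-poor diet. Every AhR-poor library lay above every I3C library given the same injection. The log2 fold change was 1.21 ± 0.22 with vehicle (adjusted p = 0.0032 in edgeR) and 1.20 ± 0.22 with papain (adjusted p = 9e-04).

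H2-DMb1 was at 2.99, 4.38, 3.70 and 5.43 CPM under the I3C diet and 8.50, 9.24, 8.93 and 8.88 CPM under the AhR-poor diet with vehicle. With papain it was at 6.31, 3.17, 3.57 and 2.54 CPM and at 9.33, 9.39, 9.31 and 7.995 CPM. Its log2 fold change between diets was 1.11 ± 0.22 with vehicle (adjusted p = 0.0051 in edgeR) and 1.20 ± 0.22 with papain (adjusted p = 0.00057). Of the windows of 100 bases in H2-DMb1 transcripts, 11.3% also occur in H2-DMb2, so reads there could be split between the 2 genes. H2-DMb2, at 1.42 CPM under the I3C diet and 4.04 CPM under the AhR-poor diet with vehicle, differed between diets by 1.51 and 1.20 on the log2 scale with vehicle and papain (adjusted p = 0.016 and 0.018).

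Ciita, the transactivator, was the weakest of the 7 and, by the correlations given later, the least like the others. It was at 1.03, 1.43, 1.06 and 1.05 CPM under the I3C diet and 2.34, 3.04, 2.74 and 3.46 CPM under the AhR-poor diet with vehicle, which did not overlap. With papain it was at 3.51, 2.31, 1.48 and 1.34 CPM under the I3C diet and at 3.42, 3.05, 2.51 and 3.13 CPM under the AhR-poor diet, which did. It was called between diets with vehicle (log2 fold change 1.34 ± 0.26, adjusted p = 0.0047 in edgeR) and not with papain (0.49 ± 0.25, adjusted p = 0.19). The overlap with papain rested on T106, at 3.51 CPM. Without it the highest I3C library was at 2.31 CPM and the lowest AhR-poor library at 2.51 CPM, and the log2 fold change was 0.84 with an adjusted p of 0.010. Whether the diet difference itself changed with papain was tested by the interaction below.

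With vehicle, 3 of the 7 genes were called higher on the AhR-poor diet (adjusted p below 0.01 and log2 fold change above 1), namely H2-DMa, H2-DMb1 and Ciita, against 1.59% of all genes tested. At an adjusted p below 0.05 with any fold, 7 of 7 passed, against 2.98%, and 7 of 7 had non-overlapping groups, against 6.45%. Their median log2 fold change was 1.31, against -0.01 over all genes tested. The number called depended on single libraries. It was 0 without T108 or T110 of the I3C vehicle group or T102 of the AhR-poor vehicle group, and 1 without T109 of the former or T100, T101 or T103 of the latter. It was 6 without T106 (all but Cd74) and 7 with the Wald test of DESeq2. It was 0 when a gene needed 10 counts in every library. For each single gene, the exact permutation test of 4 against 4 libraries gave p = 0.0286, the smallest this design allows.

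With papain, 2 of the 7 genes were called higher on the AhR-poor diet, H2-DMa and H2-DMb1, against 7.15% of all genes tested. At an adjusted p below 0.05, 6 of 7 passed, against 12.3%, and 6 of 7 did not overlap, against 12.5%. The exception both times was Ciita, and without T106 it also passed 0.05 and did not overlap. The median log2 fold change was 1.20, against 0.01 over all genes. The number called was 4 without T111 of the I3C vehicle group and 6 without T106 (all but Ciita). It was also 6 with DESeq2, with filterByExpr or with 10 counts needed in every library. When only the 8 papain libraries entered the fit it was 1.

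**Figure D2:**
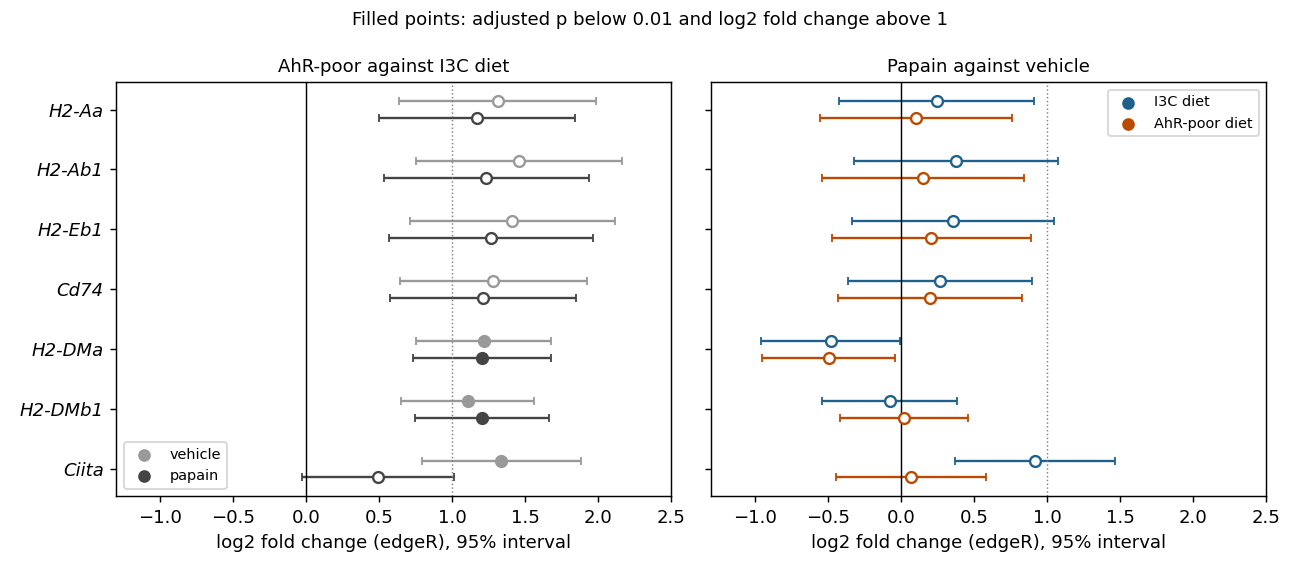
Log2 fold change of each class II gene (horizontal axis) with its 95% interval, between diets on the left and between papain and vehicle on the right; filled points passed an adjusted p below 0.01 with a log2 fold change above 1, and the dotted line marks 1. The diet differences of all genes but Ciita lie between 1.11 and 1.46, while the papain differences of the 3 chains and Cd74 lie between 0.10 and 0.38.

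Papain against vehicle gave 0 called members on the AhR-poor diet, where 6.04% of all genes were called higher, and 0 on the I3C diet, where 3.69% were. DESeq2 also called 0 on each diet, and 1 and 2 members had an unadjusted p below 0.05 in edgeR. At an adjusted p below 0.05 in either direction, 0 of 7 passed on the AhR-poor diet, against 33.4% of all genes, and 1 of 7 on the I3C diet, against 35.3%. The log2 fold changes of H2-Aa, H2-Ab1, H2-Eb1 and Cd74 were 0.10, 0.15, 0.21 and 0.20 on the AhR-poor diet, and the 95% interval of H2-Aa ran from -0.56 to 0.76. On the I3C diet they were 0.24, 0.38, 0.35 and 0.27, with an interval for H2-Aa from -0.42 to 0.91. These intervals do not show that the levels were equal.

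Ciita was the 1 member past 0.05 on the I3C diet. It was at 1.14 ± 0.19 CPM with vehicle and 2.16 ± 0.99 CPM with papain (n = 4), a log2 fold change of 0.92 ± 0.26 with an adjusted p of 0.0097 in edgeR, below the fold needed for a call. The groups overlapped, since the highest vehicle library was at 1.43 CPM and the lowest papain library at 1.34 CPM. Without T106 the log2 fold change was 0.57 with an adjusted p of 0.065, and without T109 of the vehicle group or T114 or T115 of the papain group it was called. On the AhR-poor diet the log2 fold change of Ciita was 0.07 ± 0.25 (adjusted p = 0.87).

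H2-DMa was the 1 member with a lower mean level after papain on both diets. On the AhR-poor diet all 4 papain libraries (9.87 to 10.5 CPM) lay below all 4 vehicle libraries (13.3 to 14.8 CPM), as for 16% of all genes tested. The log2 fold change was -0.50 ± 0.22 with an adjusted p of 0.089 in edgeR, and the exact permutation p was 0.0286. On the I3C diet it was -0.48 ± 0.23 (adjusted p = 0.11). Without T106 the adjusted p was 0.0079 on the AhR-poor diet, and on the I3C diet the log2 fold change was -0.90 with an adjusted p of 0.00014. H2-DMb1 showed no such difference, with log2 fold changes of 0.02 and -0.08. H2-DMa shares 360 exonic bases with Brd2 on the opposite strand, and the strand setting of the counting is not stated.

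For the interaction, the papain response on the AhR-poor diet minus that on the I3C diet, 0 of 7 members passed an adjusted p of 0.05 in edgeR, against 0.329% of all genes. DESeq2 also called 0, and 1 member, Ciita, had an unadjusted p below 0.05. Its difference was -0.85 ± 0.36 on the log2 scale (adjusted p = 0.32), and it was -0.49 without T106. The other 6 differences lay between -0.22 and 0.10. The 95% interval for H2-Aa ran from -1.08 to 0.80, which does not show that the responses were equal.

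The members varied more among the mice on the I3C diet than among those on the AhR-poor diet, with the exception of Ciita in the vehicle groups, and this difference in spread was not tested. The median SD of their log2 CPM was 0.560 with vehicle and 0.618 with papain on the I3C diet, against 0.077 and 0.155 on the AhR-poor diet. For Ciita with vehicle it was 0.158 on the I3C diet and 0.202 on the AhR-poor diet. Over the 13026 genes with at least 1 CPM on average, the median SDs were 0.167, 0.121, 0.148 and 0.125. The spread was shared. In the I3C vehicle group T108 was the lowest library for all 7 genes and T111 the highest for all but Ciita, and in the I3C papain group T115 was the lowest and T106 the highest for all 7. Cd207, the langerin gene that marks Langerhans cells, had the same lowest and highest libraries in these groups, with 11.8 and 24.7 CPM with vehicle and 6.54 and 26.0 CPM with papain.

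Across the 16 libraries, Pearson's r between the log2 CPM of 2 members lay between 0.641 (H2-DMa and Ciita) and 0.998 (H2-Ab1 and H2-Eb1). With the group means subtracted it lay between 0.599 and 0.994, and without Ciita it was at least 0.878. The points share their libraries and the group differences, and these values are a description. The 5 other genes whose pattern was most like the mean of the members, of 13019 with at least 1 CPM, were Cd72 (r = 0.982), H2-DMb2 (0.963), Nceh1 (0.963), Ltc4s (0.955) and Elmo1 (0.951). Of these, Cd72 is a lectin known from B cells, Ltc4s makes leukotriene C4, Nceh1 hydrolyses cholesterol esters and Elmo1 is an engulfment adaptor. Only 1 of the 5 was among the first 5 by Spearman's rho, and 1 with the group means subtracted. By the latter, Alox5 (r = 0.962), Cd207 (0.961), Cd72 (0.921) and Mfge8 (0.917) ranked highest.

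Ratios between genes within a library were chosen after the values were seen and are given without a test. Cd74 stood at 2.26 to 2.63 times H2-Aa in CPM in all 16 libraries, and H2-Ab1 at 0.917 to 1.21 times. The ratio of H2-DMa to H2-DMb1 was 1.44 to 1.71 with vehicle under the I3C diet and 1.496 to 1.75 on the AhR-poor diet. After papain it was 1.06 to 1.21 and 1.08 to 1.23, so the injections did not overlap on either diet. H2-Aa stood at 2.66 to 3.18 times Cd207 with vehicle under the I3C diet and 2.12 to 2.54 times on the AhR-poor diet, and at 3.996 to 5.52 and 3.83 to 4.50 times after papain. Ciita stood at 0.0134 to 0.0421 times H2-Aa over all libraries. The groups overlapped in this ratio, except that the papain group on the I3C diet, at 0.0263 to 0.0421, lay above the vehicle group on the AhR-poor diet, at 0.0182 to 0.0243.

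**Figure D3:**
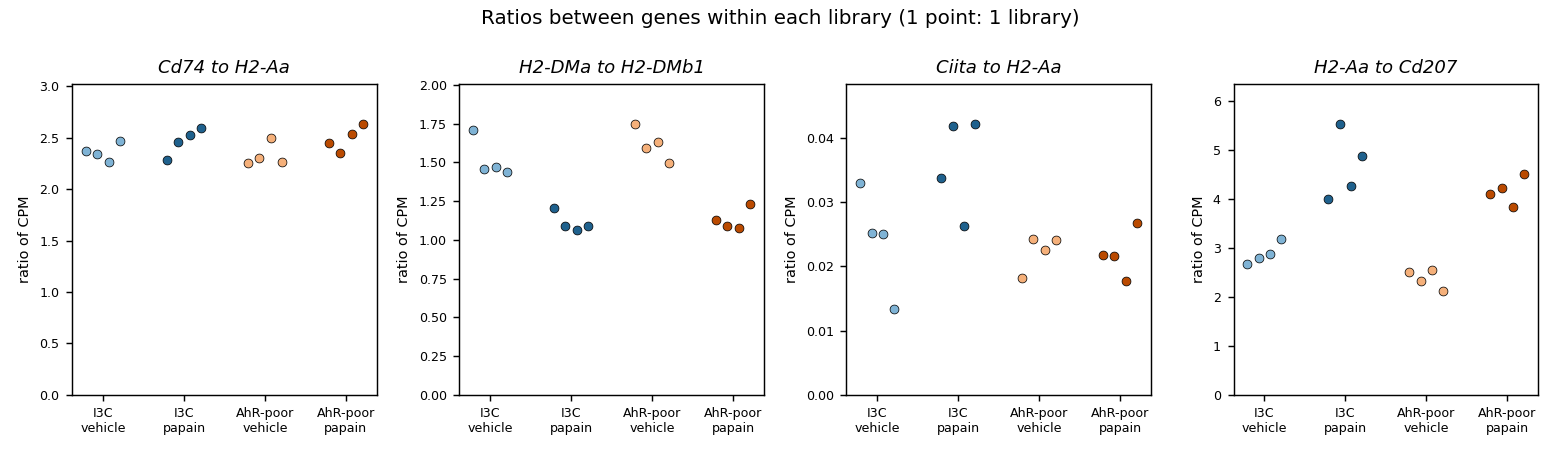
Ratio of CPM between pairs of genes within each of the 16 libraries (vertical axes from 0, no unit), by diet and injection. Cd74 to H2-Aa stays between 2.26 and 2.63; H2-DMa to H2-DMb1 is lower and H2-Aa to Cd207 higher in every papain library than in every vehicle library.

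Of the other genes of the class II pathway, 14 had a row and 13 were tested. With vehicle, 1 was called higher on the AhR-poor diet, Cd83, which limits the turnover of class II at the surface (11.2 against 24.1 CPM, log2 fold change 1.10, adjusted p = 0.0098). With papain, 4 were called higher, Ctss, H2-Oa, March1 and Cd83. Ctss, the cathepsin that trims the invariant chain, was at 5.69 CPM under the I3C diet and 38.3 CPM under the AhR-poor diet (log2 fold change 2.75), and Cd83 at 11.7 and 29.5 CPM (1.33). March1, the ligase that marks class II for turnover and named here after its values were seen, was at 0.518 and 1.79 CPM (1.78). H2-Oa, a chain of the inhibitor of H2-DM, had at most 1 count in each I3C library, and was at least 2.11-fold higher under the AhR-poor diet with papain and at least 1.502-fold with vehicle, against 3 counts per library. With each library left out in turn, 0 to 3 genes of this list were called between diets with vehicle and 2 to 6 with papain. Cd83 with vehicle was among the calls lost, and H2-Oa and March1 with papain.

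After papain, the genes of this list that were called were lysosomal proteases. Lgmn, asparaginyl endopeptidase, rose on the log2 scale by 2.24 on the AhR-poor diet and 2.29 on the I3C diet, from 34.4 to 162 CPM and from 39.0 to 191 CPM. Ctsb, cathepsin B, rose by 1.20 and 1.29, and Ctss by 1.61 on the AhR-poor diet (adjusted p = 0.0041), while its difference on the I3C diet was 0.30 (adjusted p = 0.61). The call of Ctss was lost without T100, T101, T102, T103 or T105, with log2 fold changes of 1.29 to 1.63 and adjusted p of 0.013 to 0.016. In all, 3 of 13 were called higher on the AhR-poor diet and 2 of 13 on the I3C diet. Lgmn and Ctsb are lysosomal proteases of many cell types.

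Of the 7 factors of the X and Y boxes (the Rfx and Nfy subunits and Creb1), 0 were called in any comparison by edgeR or DESeq2. Between diets, 0 with vehicle and 1 with papain had an unadjusted p below 0.05 in edgeR, and after papain 3 did on the AhR-poor diet and 2 on the I3C diet. Nfyb, a subunit of the Y box factor, had log2 fold changes of 0.59 and 0.58 after papain (adjusted p of 0.00011 on the AhR-poor diet and 9.5e-05 on the I3C diet).

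Of 12 genes known to act on Ciita, 3 were called higher after papain on the AhR-poor diet and 2 on the I3C diet. Ifngr1, a chain of the interferon gamma receptor, rose by 1.46 and 1.58 on the log2 scale, and Spi1, the myeloid factor PU.1, by 1.84 and 1.23. Il10 rose by 4.07 on the AhR-poor diet, from 0.299 to 4.99 CPM. Its papain level there was 12.1 CPM in T105 and 2.02 to 3.85 CPM in the other 3 libraries. Without T105 the mean was 2.64 CPM and the log2 fold change 3.12, still called. Irf1 was called lower under the I3C diet and fell by 1.90, a gene named after its values were seen. Its mean fell from 255 to 68.3 CPM there, and from 183 to 100 CPM on the AhR-poor diet, where it was not called. The vehicle libraries of Irf1 spread widely, from 154 to 410 CPM (I3C diet) and 95.9 to 290 CPM (AhR-poor diet). Between diets, 0 were called with vehicle by edgeR or DESeq2, with 2 at an unadjusted p below 0.05, and 3 were called higher on the AhR-poor diet with papain, Irf8 (1.55), Spi1 (1.53) and Il10 (2.82). That of Il10 was 1.86 without T105, and its call was lost without T113, T114 or T115 (adjusted p of 0.012 to 0.017).

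Class I presentation, which serves CD8 T cells and is driven by Nlrc5, differed from the members in its counts, though the difference between the lists was not tested. Of 12 genes, 5 were called higher after papain on the AhR-poor diet and 6 on the I3C diet, among them Nlrc5 (2.42 and 3.15 on the log2 scale) and Psmb10 (1.65 and 1.75). Tap2 (1.06) was among those on the AhR-poor diet, and Calr (1.12) and Erap1 (1.35) among those on the I3C diet. On the other diet each lay just below the fold needed, Tap2 at 0.955, Calr at 0.951 and Erap1 at 0.945. There each was called when some single library was left out, and the call of Tap2 on the AhR-poor diet was lost without T103 (0.982). Between diets, 0 were called with vehicle by edgeR or DESeq2, with 1 at an unadjusted p below 0.05, and 1 with papain, B2m (1.06), which was 0.86 without T105 and 0.99 without T113 and then not called. Of 6 co-stimulatory genes, 1 was called higher on the AhR-poor diet with vehicle, Cd86 (1.47), and 4 with papain, Cd80 (2.77), Cd86 (1.61), Cd274 (1.96) and Pdcd1lg2 (2.93). Icosl went the other way. It was lower on the AhR-poor diet with both injections without overlap, at 31.9 against 44.0 CPM with vehicle (log2 fold change -0.46, adjusted p = 0.17) and 52.5 against 96.0 CPM with papain (-0.87, adjusted p = 8e-04), and was called lower with papain without T106 (-1.01). With a library left out, 0 to 2 of the 6 were called higher with vehicle and 4 to 5 with papain. After papain 3 were called on the AhR-poor diet (Cd80, Cd274, Pdcd1lg2) and 2 on the I3C diet (Cd40, Icosl). These counts were 3 to 4 and 1 to 3 with a library left out. The call of Cd40 was lost without T106, T108, T109, T110, T113 or T114 (adjusted p of 0.013 to 0.020 in edgeR). On the AhR-poor diet Cd40 rose by 0.937 and was called without T103 (1.285).

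In bulk samples, fewer cells of a type and less RNA per cell cannot be told apart, and the markers of several class II bearing cells moved with the diet. The summed level of the 7 members was 177 to 437 CPM with vehicle and 187 to 581 CPM with papain on the I3C diet, and 695 to 780 and 704 to 906 CPM under the AhR-poor diet. The summed level of the 10 genes listed as Langerhans cell markers was 169 to 281 and 82.2 to 228 CPM on the I3C diet, and 329 to 420 and 283 to 549 CPM under the AhR-poor diet. Mfge8 and Il1r2 made up most of this sum, with means of 101.1 and 66.7 CPM in the I3C vehicle group, and Ptprc, Aif1, Tyrobp and Fcer1g are also expressed by other leukocytes, so the sum does not stand for Langerhans cells alone. Of these markers, 0 were called between diets with vehicle in edgeR (8 at an unadjusted p below 0.05, and 4 called by DESeq2) and 8 with papain (0 to 2 and 5 to 9 with a library left out). Cd207 was 1.62 higher on the AhR-poor diet on the log2 scale with vehicle and 1.27 higher with papain (adjusted p = 0.017 and 0.018). Without T106 it was called with both injections, at 1.61 with vehicle and 1.77 with papain (adjusted p of 0.0016 and 0.00042 in edgeR). The papain differences of Cd207 were -0.71 (AhR-poor diet) and -0.36 (I3C diet) (adjusted p = 0.12 and 0.47). Other genes of the list moved differently after papain. On the AhR-poor diet 4 were called higher, Ptprc (1.603), Aif1 (3.26), Tyrobp (2.48) and Fcer1g (2.91), and on the I3C diet 1 was called lower, Il1r2 (-1.52). The part of the Langerhans cell markers in the diet difference of the members was not tested.

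Monocyte and macrophage markers, 9 genes, summed to 5.99 to 8.44 and 6.27 to 16.5 CPM on the I3C diet with vehicle and papain, and to 18.1 to 28.4 and 63.9 to 250 CPM under the AhR-poor diet. Of these, 5 and 9 were called higher on the AhR-poor diet with vehicle and papain (2 to 6 and 9 with a library left out), 8 after papain on the AhR-poor diet and 2 on the I3C diet. The B cell markers, 5 genes, summed to 0.385 to 4.34 CPM over all libraries, Ms4a1 had no count in the I3C libraries, and 0 and 1 were called between diets (2 and 4 at an unadjusted p below 0.05, and 0 and 1 called by DESeq2). Of the 8 markers of conventional dendritic cells, Xcr1 and Clec9a had at most 1 count in a library, the list summed to 1.69 to 19.9 CPM, and 0 and 3 were called between diets (DESeq2 called 1 and 4, and 4 and 5 had an unadjusted p below 0.05 in edgeR). T cell markers summed to 8.43 to 51.6 CPM, with 0 and 1 of 5 called between diets (0 and 5 at an unadjusted p below 0.05, and 0 and 4 called by DESeq2). Neutrophil markers summed to 1.29 to 8.45 CPM in the vehicle libraries. With papain they summed to 31.7 to 38.1 CPM on the I3C diet and 44.4 to 193 CPM on the AhR-poor diet. Most of the I3C sum with papain was Cxcr2 and Mmp9, with means of 24.2 and 10.1 CPM. Ly6g had no count there, and Retnlg and Csf3r had means of 0.089 and 0.739 CPM. Between diets, 0 and 2 of the 5 were called (3 and 5 at an unadjusted p below 0.05, and 3 and 2 called by DESeq2). Markers of dermal fibroblasts, which are not epidermal cells, summed to 1.87 to 12.6 CPM under the I3C diet and 70.1 to 468 CPM under the AhR-poor diet, with 5 of 5 called with either injection (3 to 5 and 5 with a library left out), as were 4 of 4 endothelial markers. Keratinocytes were the main cell type by the methods. Their markers summed to 36717 to 60341 CPM, and 0 of 4 were called in any comparison by edgeR or DESeq2. In edgeR, 2 had an unadjusted p below 0.05 after papain on each diet and 0 between diets. The part of these other cells in the levels of the members was not tested.

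**Figure D4:**
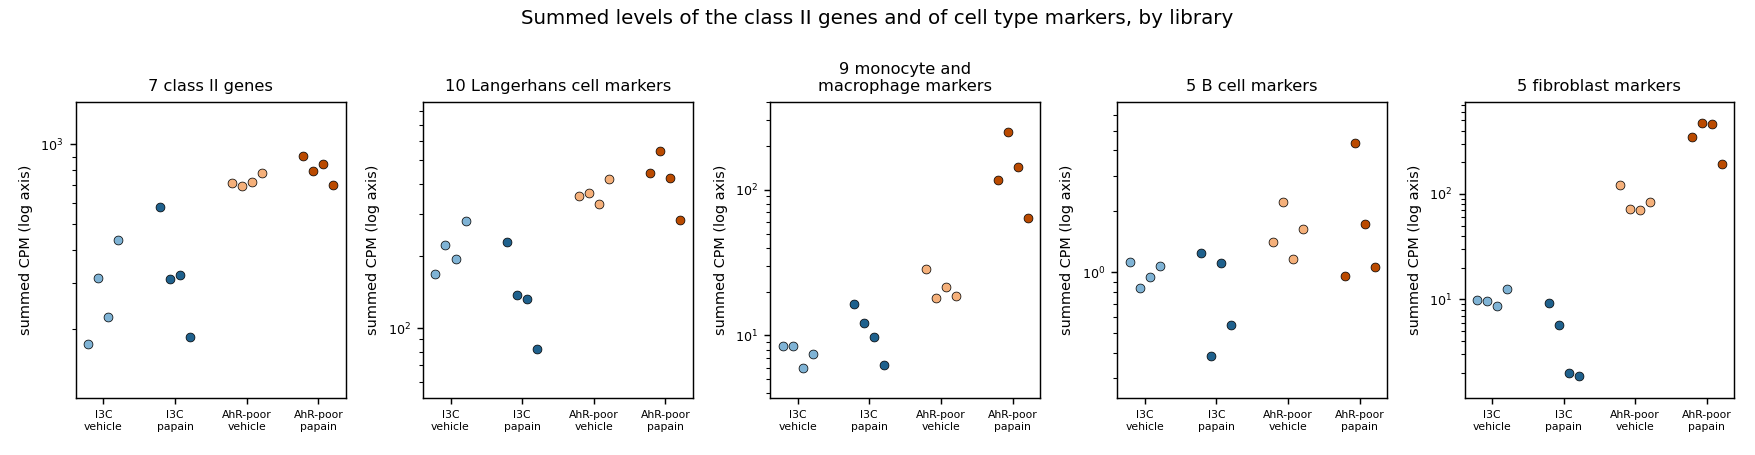
Summed CPM (log axes, a separate scale for each list) of the 7 class II genes and of the genes listed as markers of Langerhans cells, monocytes and macrophages, B cells and dermal fibroblasts in each of the 16 libraries, by diet and injection. The class II sum is at most 581 CPM under the I3C diet and at least 695 CPM under the AhR-poor diet; the fibroblast and monocyte sums also separate the diets, and the Langerhans cell sums do so within each injection.

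By GENCODE release M21 on GRCm38, H2-DMa (chr17:34119541-34139101, plus strand), H2-DMb1 (chr17:34153072-34160230, plus), H2-Ab1 (chr17:34257689-34269419, plus), H2-Aa (chr17:34282744-34287823, minus) and H2-Eb1 (chr17:34305867-34316674, plus) lie in the MHC of chromosome 17. Ciita lies at chr16:10480059-10528418 and Cd74 at chr18:60803848-60812652, both on the plus strand. Ciita shares 329 exonic bases with Dexi on the opposite strand, and Cd74 shares 12 with a microRNA gene inside it. No window of 100 bases in transcripts of the members other than H2-DMb1 occurs in transcripts of another gene.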

How the data were processed

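The authors isolated footpad epidermal cells, made TruSeq Stranded libraries and, per the labels, aligned reads with STAR to mm10. They deposited raw counts of reads per gene and library. FastQC and DESeq2 are also named in the submitters' processing notes. The counting tool, annotation release and strand setting are not given in the sources used here, so reads of overlapping antisense genes may not be separable. Counts were whole numbers with differing library totals. Groups were taken from the labels.

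Genes that reached 10 counts over all libraries were tested in edgeR 4.0.16 under R 4.3.3 with TMM factors, a mean for each of the 4 groups and the robust quasi-likelihood test over all 16 libraries. Calls needed an adjusted p (Benjamini-Hochberg) below 0.01 and an absolute log2 fold change above 1. CPM were computed from counts and TMM factors. Intervals are 95% intervals of the fit. Two-sided exact permutation tests compared mean log2(CPM + 0.5) between 4 and 4 libraries. Likeness was Pearson's r with the mean z-score of the members.

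The members and lists were chosen with earlier results of these data known. All members were named. For the other lists the plan was to name the called genes, up to 5 a list by smallest adjusted p. It was not kept throughout, since some called class I genes and many called marker genes were only counted. One gene of the list acting on Ciita is not reported here and was left out of its counts. Alternatives were RLE factors, library size only, other low-count filters, DESeq2 1.42.0, only the 8 libraries compared, other thresholds and each library left out in turn, which for the lists was added after seeing the data. Simulated data were used to test the scripts. Promoters came from RefSeq, and positions and exon lengths from GENCODE M21. Of the identifiers, 50376 of 50600 matched a symbol. No promoter was used for H2-Ab1, Cd74 and Ciita.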

Additional observations from a re-analysis of the deposited data

Results flagged for a closer look

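In 3 of 28 sets of 4 libraries (7 genes in 4 groups), 1 library lay far from the other 3 by Dixon's ratio at its 95% limit. Chance does this in about 1 of 20 sets. Ciita in the vehicle group on the I3C diet was at 1.43 CPM in T109, against 1.03 to 1.06 CPM in the others. H2-DMa in the vehicle group on the AhR-poor diet was at 13.3 CPM in T103, below the others at 14.6 to 14.8 CPM. H2-DMb1 in the papain group on the AhR-poor diet was at 7.995 CPM in T112, below the others at 9.31 to 9.39 CPM. T106, which was the highest library of its group for all 7 genes, did not pass this limit for any of them.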

How the results depend on the processing

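The members called between diets with vehicle (3) were 0 with at least 10 counts in every library as the filter and 7 with DESeq2 or with an adjusted p below 0.05, with or without the minimum fold, and 0 to 6 with 1 library left out. With papain (2) they were 6 with filterByExpr, with at least 10 counts in every library, with DESeq2 and with an adjusted p below 0.05 (with or without the fold), 1 with only the 8 libraries compared, and 2 to 6 with 1 library left out. Papain on the I3C diet (0) gave 1, Ciita, without a minimum fold at either threshold, and 0 to 1 with 1 library left out. Papain on the AhR-poor diet and the interaction stayed at 0 in all of these. Every diet log2 fold change of the members stayed above 0. The interaction of H2-DMa (-0.01) was 0.005 with RLE factors, 0.039 with library size only, 0.017 with at least 10 counts in every library and 0.007 with DESeq2. With 1 library left out, the papain differences on the I3C diet ran from -0.142 to 0.512 for H2-Aa, -0.058 to 0.655 for H2-Ab1, -0.063 to 0.630 for H2-Eb1, -0.061 to 0.568 for Cd74 and -0.428 to 0.087 for H2-DMb1. Those on the AhR-poor diet ran from -0.002 to 0.072 for H2-DMb1 and -0.013 to 0.175 for Ciita. The interaction ran from -0.400 to 0.253 for H2-Aa, -0.494 to 0.219 for H2-Ab1, -0.412 to 0.280 for H2-Eb1, -0.362 to 0.266 for Cd74, -0.175 to 0.414 for H2-DMa and -0.058 to 0.457 for H2-DMb1. The genes most like the members shared 1 of 5 with the first choice under Spearman's rho and 1 of 5 with group means subtracted. The causes were not tested. No paired analysis was possible because the library codes are not shared between groups. Depth limits Ciita most, with 35 to 161 counts in a library, while every other member had at least 99.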
